A study of Homo sapiens with 6 samples.

Results

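The EGF receptor family was followed in SK-MES-1 cells through 10 transcripts: the receptors EGFR, ERBB2 and ERBB3, the ligands AREG, EREG, HBEGF, TGFA and NRG1, and the receptor inhibitors ERRFI1 and LRIG1. They were chosen by gene symbol, and all 10 had a row among the 15761 genes of the deposited table. SK-MES-1 is a long-used human cell line from a squamous carcinoma of the lung, and the labels give its genotype as WT in both groups. The treated group received 20 µg/ml of exosomes, small vesicles released by cells, from IPF (idiopathic pulmonary fibrosis) lung fibroblasts for 72 h, and the control group was incubated without exosomes (3 libraries each). No group received vesicles from other cells, so an effect of exosomes in general and of exosomes from IPF fibroblasts cannot be told apart. The comparison asks what the fibroblast vesicles do to transcripts of the tumour cells.

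The receptors of this family are tyrosine kinases at the cell surface that work in pairs. AREG (amphiregulin), EREG (epiregulin), HBEGF (heparin-binding EGF-like growth factor) and TGFA (transforming growth factor alpha) are made as membrane proteins, are cut free by metalloproteases such as ADAM17 and then bind EGFR; NRG1 (neuregulin) binds ERBB3 and ERBB4. ERBB2 has no known soluble ligand of its own and acts as a partner, and ERBB3 has little kinase activity. Active receptors signal through RAS and ERK, which in turn raise transcripts of several ligands and of ERRFI1 (also called MIG6), an inhibitor that binds the kinase domain, while LRIG1 is a membrane protein that promotes loss of the receptors. EGFR is often abundant in squamous carcinomas of the lung.

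Libraries held 11346639 to 13334508 counts, with 14294 to 14540 genes detected in each. Within groups no pair of libraries agreed within sampling noise (chi-square per gene of 2.29 to 15.6), and library 3 lay farthest from the other two in each group. Whether the 3 libraries of a group came from separate cultures is not stated, so the p-values here cover the spread among those libraries, which may be technical. Of 9 squamous and epithelial markers with a row, KRT5, KRT6A and KRT14 were below 1 CPM (counts scaled to library size) on average, whereas SFN had 127 CPM with exosomes and 62.6 CPM in controls, EPCAM 61.9 CPM with exosomes and 68.1 CPM in controls, and CDH1 (E-cadherin) 20.7 CPM with exosomes and 51.5 CPM in controls. KRT17 had 1.11 CPM with exosomes and 3.47 CPM in controls, TP63 2.28 and 1.51 CPM, and SOX2 5.57 and 4.34 CPM. The summed level of these 9 markers was 198 to 235 CPM with exosomes and 171 to 203 CPM in controls. Most of the sum with exosomes came from SFN. Summed fibroblast markers (6 of 8 with a row, most of the sum from COL1A2) had 18.7 to 22.0 CPM with exosomes and 45.2 to 51.4 CPM in controls, and the part of this in the results below was not tested. Immune markers (4 of 5 with a row, most of the sum from CD14) had 66.8 to 81.3 CPM with exosomes and 24.1 to 24.9 CPM in controls, and the 4 endothelial markers 11.7 to 13.3 CPM with exosomes and 10.6 to 12.3 CPM in controls; PTPRC, which marks all white blood cells, stayed below 1 CPM. No marker with a row was at 0 in every library.

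With exosomes the ligand AREG rose 1.70-fold and the inhibitor LRIG1 1.39-fold, while the ligand HBEGF fell 1.72-fold and the inhibitor ERRFI1 1.47-fold. ERBB2 rose 1.18-fold, a call that ended with the correction described next and, uncorrected, on dropping any one of 4 libraries. EGFR, ERBB3, EREG, TGFA and NRG1 did not pass the test. In edgeR's quasi-likelihood test, 3 of the 10 were thus higher and 2 lower at an adjusted p under 0.05, where 25.6% of all 12449 tested genes were higher and 26.1% lower; these counts are close to the background. With library totals in place of TMM factors, 3811 genes were higher and 2495 lower, against 3190 and 3244 here. In bulk RNA, fewer cells making a transcript and less of it per cell cannot be told apart.

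Fold changes over the whole table followed the GC content of the transcripts. Across genes, which are not independent replicates, the Spearman correlation was 0.62, and the median log2 fold change was -0.39 in the lowest of 10 equal bins of GC content and 0.49 in the highest. The fold change of each member is therefore given also with the trend of GC content and length removed within each library ("corrected"). With the correction 18.2% of tested genes were higher and 17.3% lower, and of the 10 members 4 were higher (AREG, EREG, NRG1 and LRIG1) and 2 lower (HBEGF and ERRFI1). AREG, LRIG1, HBEGF and ERRFI1 were called in the same direction both ways. Because length is removed as well, the shift of a member need not match the median of its GC bin. For EGFR the uncorrected minus the corrected value was -0.24, while its GC bin had a median log2 fold change of -0.046. How much of each shift came from GC content and how much from length was not tested. Whether the trend comes from the cells or from library preparation was not tested.

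**Figure D1:**
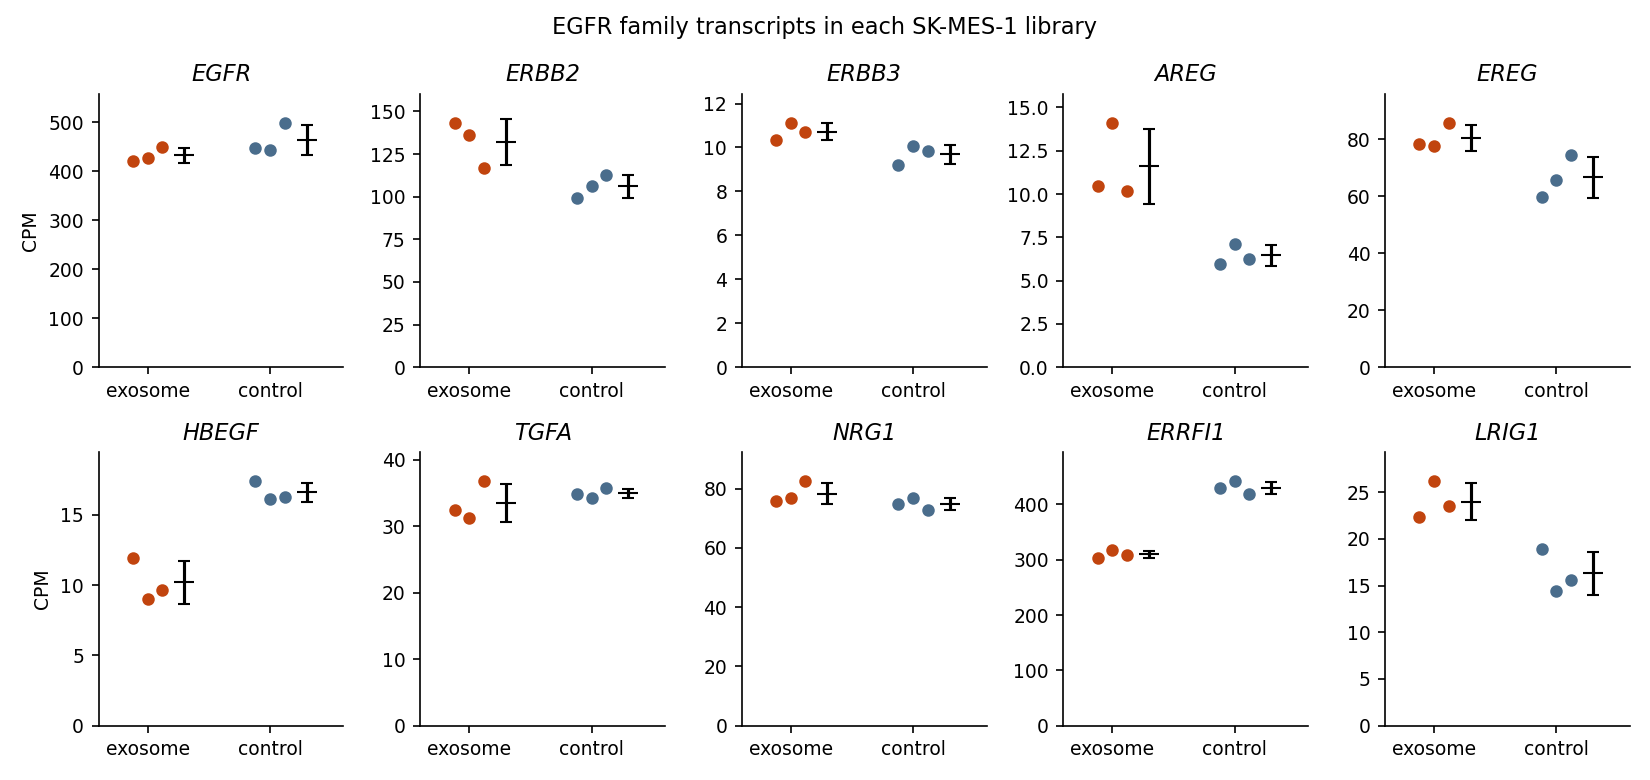
CPM of each member (y axis, from 0) in the 3 exosome libraries (left, orange) and the 3 control libraries (right, blue), with the mean and SD beside the points. HBEGF and ERRFI1 are lower in every exosome library than in any control library, and AREG, LRIG1, ERBB2, ERBB3 and EREG higher. Of all tested genes, 24.5% were lower and 35.0% higher in this way.

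**Figure D2:**
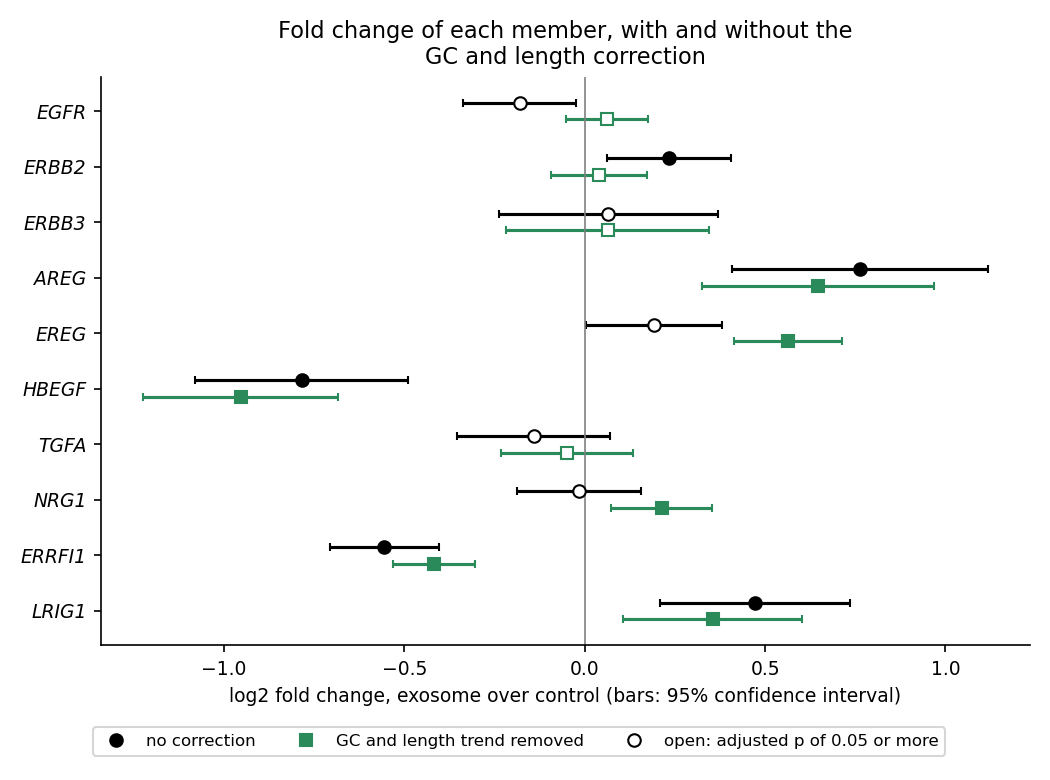
Log2 fold change of exosome over control for each member (x axis) with its 95% confidence interval, uncorrected (circles) and with the GC and length trend removed (squares); open symbols did not pass an adjusted p of 0.05. AREG and HBEGF lie farthest from 0 on opposite sides under both, and EREG moves from 0.19 to 0.56 with the correction.

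The promoters of AREG, EREG, HBEGF and ERRFI1 are shown because these are the ligands that moved in opposite directions, the neighbour of one of them, and the inhibitor that fell. Each is the 250 bases before the annotated start, 5′ to 3′ on the gene's own strand (RefSeq, GRCh38.p14). Capitals mark matches on either strand to the motif of cAMP-response factors (CRE, TGACGTCA), AP-1 (TGANTCA), TEAD factors (GGAATG), SP1 (GGGCGG) or the TATA box (TATAAA).
AREG: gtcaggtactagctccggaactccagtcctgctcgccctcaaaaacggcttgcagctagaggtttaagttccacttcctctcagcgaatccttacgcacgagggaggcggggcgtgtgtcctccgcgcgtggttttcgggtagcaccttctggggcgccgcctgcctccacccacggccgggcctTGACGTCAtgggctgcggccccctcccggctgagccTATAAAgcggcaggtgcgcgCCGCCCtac
EREG: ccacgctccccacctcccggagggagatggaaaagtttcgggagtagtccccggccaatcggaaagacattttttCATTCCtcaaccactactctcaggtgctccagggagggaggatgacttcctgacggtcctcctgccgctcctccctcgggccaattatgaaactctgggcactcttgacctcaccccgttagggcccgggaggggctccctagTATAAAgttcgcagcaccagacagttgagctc
HBEGF: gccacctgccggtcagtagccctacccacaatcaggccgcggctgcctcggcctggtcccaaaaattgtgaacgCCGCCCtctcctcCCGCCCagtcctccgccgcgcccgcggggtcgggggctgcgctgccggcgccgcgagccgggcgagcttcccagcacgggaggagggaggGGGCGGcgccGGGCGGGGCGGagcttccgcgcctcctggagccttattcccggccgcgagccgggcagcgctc
ERRFI1: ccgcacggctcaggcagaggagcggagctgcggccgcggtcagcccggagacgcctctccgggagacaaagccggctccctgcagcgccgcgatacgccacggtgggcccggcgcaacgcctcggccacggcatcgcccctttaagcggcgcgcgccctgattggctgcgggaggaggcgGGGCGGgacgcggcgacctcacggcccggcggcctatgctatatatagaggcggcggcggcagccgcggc
The windows lie at chr4:74444886-74445135 (plus strand) for AREG, chr4:74364895-74365144 (plus strand) for EREG, chr5:140346604-140346853 (minus strand) for HBEGF and chr1:8026310-8026559 (minus strand) for ERRFI1. AREG held a CRE, which begins 65 bases before the start, a TATA box at 29 bases and an SP1 match at 9 bases before it. EREG held a TEAD match and a TATA box, beginning 175 and 32 bases before the start. HBEGF held 5 SP1 matches, of which 2 overlap, and ERRFI1 held 1. Among 35116 promoter windows of the same length, 1.65% held the CRE, 6.57% the AP-1 motif, 11.9% the TEAD motif, 42.6% the SP1 motif and 10.7% the TATA box. The windows were found for 8 members; ERBB3 and NRG1 are named only. A match in letters is a description and not a binding site.

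Among the receptors, none changed in a way that the correction left in place. EGFR (chromosome 7 from 55019021 to 55211628, plus strand) had 421, 426 and 449.7 CPM in exosome libraries 1 to 3, against 447, 444 and 499 CPM in control libraries 1 to 3. The groups overlapped: the highest exosome library lay above the lowest control libraries. Its log2 fold change was -0.18 ± 0.076 (SE; 95% confidence interval -0.34 to -0.023) and missed the threshold (adjusted p = 0.0518), and the corrected value had the opposite sign, 0.062 (-0.052 to 0.18, adjusted p = 0.406). The authors' deposited table gives EGFR a log2 fold change of -0.17 with an adjusted p of 0.0494, on the other side of the same threshold. Uncorrected, dropping exosome library 3 took EGFR past the threshold (adjusted p = 0.0148), and over all alternatives its adjusted p ran from 0.00317 to 0.673.

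ERBB2, on chromosome 17 from 39687914 to 39730426 (plus strand), had 143, 136 and 117 CPM with exosomes, against 99.4, 106 and 113 CPM in controls. All exosome libraries lay above the controls, but exosome library 3 did so by little. The log2 fold change of 0.23 ± 0.083 (adjusted p = 0.0222) fell to 0.040 with the correction (-0.093 to 0.17, adjusted p = 0.665). Dropping any one of control libraries 1 and 2 and exosome libraries 1 and 2 also ended the call (adjusted p from 0.0556 to 0.121). ERBB2 lies in the GC-rich part of the table, with 57.5% GC in its longest transcript, and genes of its GC bin had a median log2 fold change of 0.30. ERBB3, on chromosome 12 from 56076799 to 56103505 (plus strand), was the lowest of the receptors, at 10.3, 11.1 and 10.7 CPM with exosomes, against 9.20, 10.05 and 9.83 CPM in controls. The CPM of its groups did not overlap, yet with TMM scaling (which allows for library composition) its log2 fold change of 0.065 had an interval of -0.24 to 0.37 (adjusted p = 0.734; corrected 0.064, adjusted p = 0.75). Lack of overlap in CPM was common: 35.0% of tested genes had all exosome libraries above all controls and 24.5% below, against 5 and 2 of the 10 members. ERBB4, the other neuregulin receptor, had no row in the deposited table, so it could not be analysed.

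The ligands diverged. AREG, on chromosome 4 from 74445134 to 74455009 (plus strand), had 10.5, 14.1 and 10.2 CPM in exosome libraries 1 to 3, against 5.97, 7.14 and 6.27 CPM in control libraries, from 138, 184 and 136 reads with exosomes against 76, 81 and 81 reads in controls. Every exosome library lay above every control library, with exosome library 2 the highest. The log2 fold change was 0.76 ± 0.17 (adjusted p = 0.000802; corrected 0.65 ± 0.15, adjusted p = 0.00262), and it stayed past the threshold in every alternative run (adjusted p at most 0.0285). AREG has 45.3% GC, and genes of its GC bin had a median log2 fold change of -0.16, opposite in sign to its own. The correction, which also covers length (1.24 kb for its longest transcript), nevertheless lowered its value, by 0.12.

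EREG lies 56.4 kb before AREG on the same strand (chromosome 4 from 74365143 to 74388751). It had 78.1, 77.5 and 85.7 CPM with exosomes, against 59.7, 65.7 and 74.3 CPM in controls, without overlap, although control library 3 came close. Uncorrected, its log2 fold change of 0.19 ± 0.091 did not pass (interval 0.0044 to 0.38, adjusted p = 0.0810). Corrected, it was 0.56 ± 0.072 and passed (adjusted p = 4.23e-06). With 36.1% GC, EREG stands in the lowest bin of GC content, whose median log2 fold change was -0.39. The correction of GC content and length moved it by more than any other member. Uncorrected it also passed with library totals in place of TMM factors (0.27, adjusted p = 0.0170) and without control library 3 (0.28, adjusted p = 0.00825).

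HBEGF, on chromosome 5 from 140332843 to 140346631 (minus strand), went the other way. It had 11.9, 8.97 and 9.67 CPM with exosomes, against 17.4, 16.1 and 16.2 CPM in controls, from 157, 117 and 129 reads with exosomes against 221, 183 and 210 reads in controls. All exosome libraries lay below all controls, with exosome library 1 nearest to them. The log2 fold change was -0.78 ± 0.14 (adjusted p = 0.000106), or -0.95 ± 0.13 corrected (adjusted p = 9.62e-06), and it passed in every alternative run (adjusted p at most 0.00155).

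TGFA, on chromosome 2 from 70447280 to 70554193 (minus strand), had 32.5, 31.2 and 36.7 CPM with exosomes, against 34.8, 34.3 and 35.7 CPM in controls. The groups overlapped, since exosome library 3 was the highest of all 6. Its log2 fold change of -0.14 had an interval of -0.35 to 0.070 (adjusted p = 0.257; corrected -0.050, -0.23 to 0.13). NRG1, on chromosome 8, had 75.9, 76.8 and 82.5 CPM with exosomes, against 74.8, 77.0 and 73.0 CPM in controls, again with overlap. Its log2 fold change was -0.017 (-0.19 to 0.15, adjusted p = 0.884), whereas corrected it was 0.21 (0.074 to 0.35, adjusted p = 0.0169). That corrected call ended without exosome library 1 or 3 (adjusted p from 0.0507 to 0.0529), and the uncorrected sign turned with library totals (0.065).

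Both inhibitors moved, in opposite directions. ERRFI1, on chromosome 1 from 8004404 to 8026308 (minus strand), had 304, 317 and 308 CPM with exosomes, against 429, 442 and 419.6 CPM in controls. The groups were far apart relative to their spread, with SDs of 6.70 CPM with exosomes and 11.1 CPM in controls. Its log2 fold change was -0.56 ± 0.073 (adjusted p = 3.28e-06; corrected -0.42 ± 0.055, adjusted p = 5.95e-06), and it passed in every alternative run (adjusted p at most 0.00022). LRIG1, on chromosome 3 from 66378797 to 66501263 (minus strand), had 22.3, 26.2 and 23.5 CPM with exosomes, against 18.9, 14.5 and 15.6 CPM in controls. All exosome libraries lay above the controls, with control library 1 nearest. Its log2 fold change was 0.47 ± 0.13 (adjusted p = 0.00359; corrected 0.35 ± 0.12, adjusted p = 0.0243), and the corrected call ended on dropping control library 2, exosome library 2 or exosome library 3 (adjusted p from 0.0666 to 0.126). LRIG1 has 55.2% GC, in a GC bin with a median log2 fold change of 0.30.

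Several members overlap other genes in GENCODE 29, and no source used here says whether reads were counted by strand, so their reads may be shared. EGFR overlaps the antisense gene EGFR-AS1, ERBB2 overlaps MIEN1 and PGAP3, LRIG1 overlaps SLC25A26, ERRFI1 overlaps an antisense gene, and ERBB3 overlaps an unnamed coding gene on its own strand. TGFA and NRG1 hold small genes within their span. AREG, EREG and HBEGF overlap no other annotated gene.

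**Figure D3:**
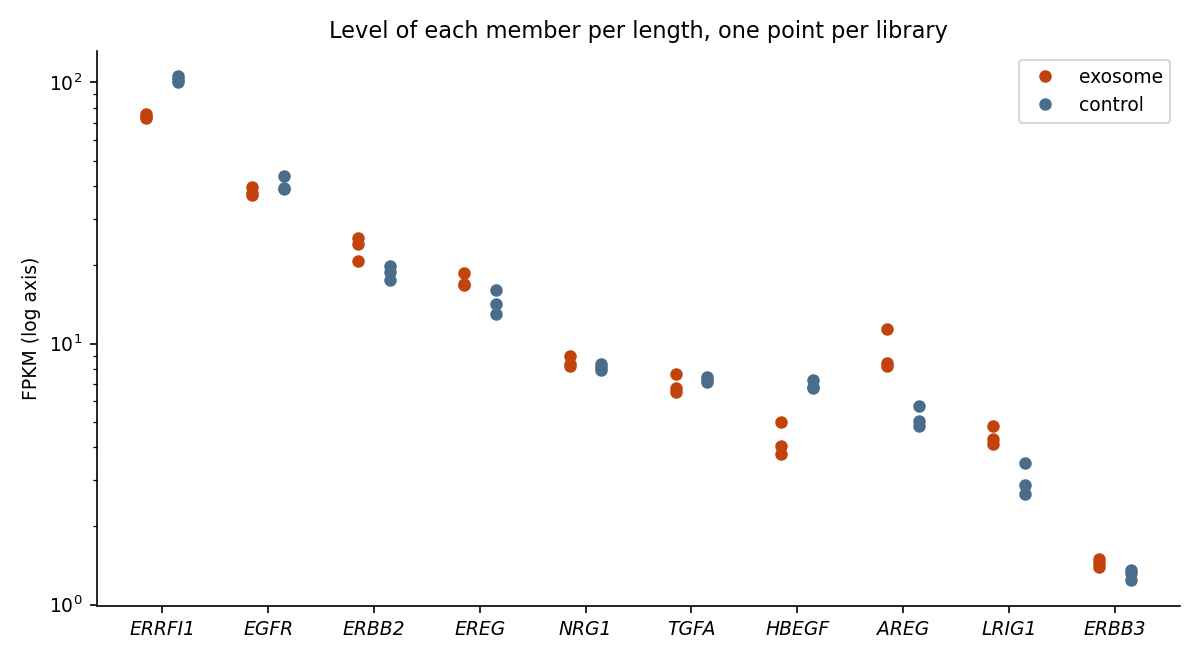
FPKM of each member (y axis, log scale; reads scaled for gene length and library size by the authors) in each exosome (orange, left) and control (blue, right) library, ordered by the control mean. ERRFI1 and EGFR are the highest in both groups and ERBB3 the lowest, while AREG and HBEGF change places.

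Levels of different genes were compared per length, in the authors' FPKM. With exosomes the order from high to low was ERRFI1 (74.3 ± 1.61 FPKM, SD, n = 3), EGFR (38.2 ± 1.34), ERBB2 (23.3 ± 2.41), EREG (17.4 ± 0.992), AREG (9.35 ± 1.76), NRG1 (8.51 ± 0.390), TGFA (6.98 ± 0.603), LRIG1 (4.42 ± 0.362), HBEGF (4.27 ± 0.646) and ERBB3 (1.44 ± 0.0534). Of these neighbours, AREG overlapped NRG1 in its libraries and LRIG1 overlapped HBEGF. In controls the first 4 were the same, at 103 ± 2.65 FPKM for ERRFI1, 40.9 ± 2.72 for EGFR, 18.7 ± 1.16 for ERBB2 and 14.4 ± 1.58 for EREG. NRG1 (8.14 ± 0.221 FPKM), TGFA (7.28 ± 0.146), HBEGF (6.95 ± 0.287), AREG (5.21 ± 0.489), LRIG1 (3.00 ± 0.423) and ERBB3 (1.30 ± 0.0594) followed, and only TGFA and HBEGF overlapped. The FPKM of NRG1 implies a length of 9.21 kb, against 5.93 kb for its longest annotated transcript; per kilobase of the longest transcript NRG1 stood above AREG with exosomes (13.2 and 9.35 CPM per kb) and overlapped EREG in controls.

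In FPKM, the ratio of AREG to HBEGF was 1.69, 3.03 and 2.03 in exosome libraries 1 to 3, against 0.662, 0.852 and 0.742 in control libraries. AREG thus exceeded HBEGF in each exosome library and fell short of it in each control library, a pair chosen after its values were seen and given without a test. Summed over the 5 ligands, FPKM was 45.4, 46.8 and 47.5 with exosomes and 40.4, 42.3 and 43.3 in controls. EREG made up the largest share, 37.3%, 35.9% and 39.1% with exosomes and 32.0%, 33.7% and 37.1% in controls. Among the receptors, EGFR was 58.2%, 59.6% and 64.3% of the summed FPKM with exosomes and 67.7%, 66.1% and 67.5% in controls, and ERBB3 at most 2.37% in any library. Shares and ratios in FPKM were not corrected for GC content. The corrected log2 fold changes were 0.062 for EGFR and 0.040 for ERBB2, against -0.18 and 0.23 uncorrected. The ratio of ERRFI1 to EGFR was 1.96, 2.02 and 1.86 with exosomes and 2.61, 2.70 and 2.29 in controls, without overlap.

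The remaining ligands were scarce. EGF, the founding ligand, had 0.810 ± 0.289 CPM with exosomes and 1.53 ± 0.308 CPM in controls (log2 fold change -0.98, adjusted p = 0.0412), and lost its call with the correction (-0.81, adjusted p = 0.118). Dropping any one of control libraries 1 and 2 and exosome libraries 2 and 3 also ended it (adjusted p from 0.0796 to 0.157). BTC (betacellulin) had 3.34 ± 0.497 CPM with exosomes and 2.67 ± 0.842 CPM in controls and did not pass (0.24, adjusted p = 0.476). EPGN, NRG2, NRG3 and NRG4 were below 1 CPM in both groups and were not tested.

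Of 7 tested genes of ligand shedding, 3 were higher and 3 lower uncorrected, and none with the correction (edgeR; of the 7, none had an unadjusted p under 0.05 either). Over all tested genes, 25.6% were higher and 26.1% lower uncorrected, and 18.2% and 17.3% with the correction. The proteases ADAM10, ADAM17 and ADAM9 were the lower ones. ADAM10 had 164 ± 11.3 CPM with exosomes and 219 ± 8.19 CPM in controls (log2 fold change -0.50, adjusted p = 2.35e-05; corrected 0.011, adjusted p = 0.908). ADAM17, the main sheddase of AREG, had 74.2 ± 9.41 CPM with exosomes and 87.8 ± 2.80 CPM in controls (-0.32, adjusted p = 0.00601; corrected 0.057), and its uncorrected call ended without exosome library 2 (adjusted p = 0.0630). ADAM9 had 235 ± 9.84 CPM with exosomes and 285 ± 7.82 CPM in controls (-0.36, adjusted p = 0.000369; corrected -0.091). The higher ones were the genes of iRhom1 and iRhom2, which carry ADAM17 to the surface, RHBDF1 (0.41, corrected -0.015) and RHBDF2 (0.41, corrected 0.028), and FRMD8, which stabilises iRhoms (0.29, corrected -0.042). FRMD8 lost its uncorrected call without exosome library 1 or 2 (adjusted p from 0.0806 to 0.0920). ADAM12 did not pass (-0.024, adjusted p = 0.928), and TIMP3, an inhibitor of ADAM17, was below 1 CPM.

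**Figure D4:**
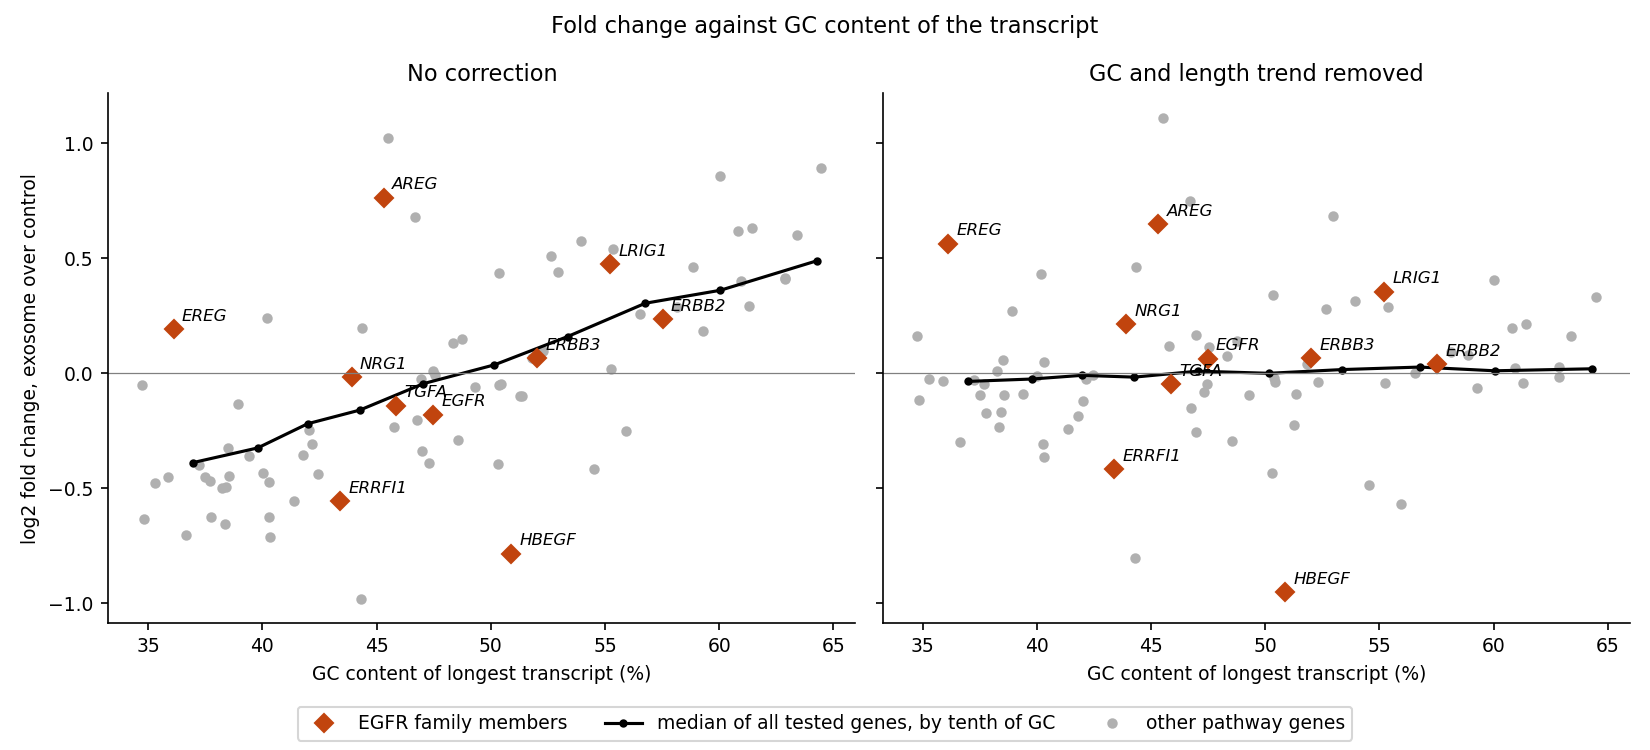
Log2 fold change of exosome over control (y axis) against the GC content of the longest transcript (x axis, %) for the 10 members (orange), the other tested pathway genes (grey) and the median of all tested genes in 10 bins of GC content (black), uncorrected (left) and corrected (right). The black line climbs from -0.39 to 0.49 on the left and is nearly flat on the right, and AREG, EREG, HBEGF and ERRFI1 lie away from it in both panels.

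Of 16 adaptors and proximal signalling genes, 3 were higher and 6 lower, beside 25.6% and 26.1% of all tested genes. Their median log2 fold change was -0.050, against -0.0042 over all tested genes. With the correction 1 was higher and 5 lower, beside 18.2% and 17.3% of all tested genes. The RAS activators SOS1 (-0.62, adjusted p = 2.97e-06; corrected -0.17) and SOS2 (-0.62, corrected -0.31) and the PI3-kinase subunit PIK3R1 (-0.71, corrected -0.36) fell both ways, though dropping any one of libraries 1 and 2 of either group ended the corrected call of SOS1 (adjusted p from 0.0553 to 0.105). PIK3CA fell uncorrected (-0.63) and did not pass corrected (-0.12, adjusted p = 0.199). The adaptor CRK, named after its values were seen, rose to 13.3 ± 2.67 CPM with exosomes, against 6.21 ± 0.531 CPM in controls (1.02, adjusted p = 4.68e-05; corrected 1.11, adjusted p = 3.25e-05).

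Of 9 RAS, RAF, MEK and ERK genes with a row, 4 were higher and 4 lower, beside 25.6% and 26.1% of all tested genes. The kinase genes ARAF (0.46, adjusted p = 0.000103) and MAPK3, which encodes ERK1 (0.63, adjusted p = 0.000105), were higher, and the RAS gene NRAS (-0.49, adjusted p = 0.000234) lower. None of these passed with the correction, at 0.077, 0.21 and -0.17. MAP2K1, which encodes MEK1 and was named after its values were seen, rose both ways (0.44 and 0.34 corrected). With the correction 1 of the 9 was higher and 1 lower (median -0.014, against -0.098 uncorrected), beside 18.2% and 17.3% of all tested genes.

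Of 20 genes of receptor degradation and trafficking, 2 were higher and 13 lower (median -0.35), beside 25.6% and 26.1% of all tested genes. With the correction 1 was higher and 2 lower (median -0.047), beside 18.2% and 17.3% of all tested genes. The sorting protein STAM2 fell both ways (-0.70, adjusted p = 7.82e-06; corrected -0.30, adjusted p = 0.00522). Its partner HGS rose (0.60, adjusted p = 1.39e-05), the ubiquitin ligase NEDD4 fell (-0.47, adjusted p = 9.38e-05) and the deubiquitinase USP8 fell (-0.47, adjusted p = 0.000222), and none of them passed with the correction, at 0.16, -0.046 and 0.048. Named after their values were seen, the endocytic adaptor EPN1 rose (0.44, corrected 0.68) and the CBL-binding adaptor SH3KBP1 fell (-0.34, corrected -0.26) both ways. CBL, the ubiquitin ligase of EGFR, was at -0.23 (adjusted p = 0.0182; corrected 0.12, adjusted p = 0.134), and its uncorrected call ended on dropping control library 2, control library 3 or exosome library 2 (adjusted p from 0.0746 to 0.101).

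Of 15 tested transcripts that ERK signalling induces, 7 were higher and 3 lower (median 0.15), beside 25.6% and 26.1% of all tested genes. With the correction 4 were higher and 3 lower (median 0.19), beside 18.2% and 17.3% of all tested genes. The list itself was not tested. The transcription factor MYC had 328 ± 27.4 CPM with exosomes and 208 ± 24.9 CPM in controls (0.57, adjusted p = 2.02e-05; corrected 0.32, adjusted p = 0.000774). The ERK phosphatase DUSP6 had 12.9 ± 0.787 CPM with exosomes and 7.61 ± 0.569 CPM in controls (0.68, adjusted p = 0.000799; corrected 0.75). CCND1, which encodes cyclin D1, had 255 ± 10.3 CPM with exosomes and 317 ± 38.8 CPM in controls (-0.40, adjusted p = 0.000468; corrected -0.44), opposite to them. ETV4 was higher uncorrected (0.62, adjusted p = 0.00490) and did not pass corrected (0.195, adjusted p = 0.341). Named after their values were seen, DUSP5 (-0.25, corrected -0.57) and ETV5 (-0.29, corrected -0.29) fell and PHLDA1 (0.19, corrected 0.46) rose both ways. Their uncorrected calls ended on dropping any one of 4 libraries for DUSP5 and of 3 for ETV5 and PHLDA1. The corrected call of ETV5 ended on dropping either of 2 libraries. The calls of MYC, DUSP6 and CCND1 held without each library in turn, with and without the correction.

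The genes whose log2 CPM was most like that of EGFR over the 6 libraries were DCBLD2 (Pearson r = 0.998), ZFYVE1 (0.998) and TRAPPC9 (0.997). These are the highest of 12448 correlations, and the points share the group difference and the library scaling, so they are a description only.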

How the data were processed

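Per the labels' protocols, Trizol was used to take RNA from 6 SK-MES-1 samples (3 with and 3 without exosomes), and libraries were built with a NEBNext Ultra kit. The submitters' processing notes name STAR and GRCh38 (hg38). No source used here gives the counting program, its annotation or its use of strand. The deposited table holds read counts per gene, and the authors' signal (counts divided by 1 size factor per library), FPKM, log2 fold changes and p-values. Counts were used for tests, FPKM for levels between genes, and the signal for none. Groups and replicate numbers came from the titles.

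The test was edgeR 4.0.16 on the counts, run in R 4.3.3 (filterByExpr, TMM, robust quasi-likelihood fit, group as the only term), adjusted by Benjamini-Hochberg over 12449 genes at 0.05. SE was derived from the fold change and its F statistic. The correction smooths each library's log2 CPM deviation on GC content and log2 length of the longest GENCODE 29 transcript (loess, span 0.3) and enters edgeR as an offset. CPM is scaled to library totals. Intervals cover 95%. Table positions were 1 base below GENCODE 29 at both ends for all 15490 genes compared, and positions here follow GENCODE, counted from 1. Library totals put 1 CPM at over 11 reads, so members rested on at least 76 reads.

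The test was checked on counts simulated without the trend of GC content and length. It called 72% of genes set to change 1.5-fold, 90% of those set to change 2-fold and 0.0163% of unchanged genes. Smaller changes were not simulated. Alternatives were RLE factors, library totals, 2 other filters, DESeq2 1.42.0, limma-voom (limma 3.58.1), a threshold of 0.01, a replicate block, the correction, and leaving out each library; leaving out libraries under the correction, and library 3 of both groups, were added after seeing the data. The members and lists were chosen with earlier results of these data known. Named are all members, the lowest adjusted p-values of each list (up to 4 genes), every listed receptor, ligand or sheddase with a row, and the 3 genes most like EGFR. Some listed genes are not reported here.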

Additional observations from a re-analysis of the deposited data

How the results depend on the processing

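AREG, HBEGF and ERRFI1 kept direction and call in all 24 alternatives, and ERBB3 and TGFA passed in none. The exosome and control titles share replicate numbers, but the deviations of same-numbered libraries correlated by 0.066, 0.10 and 0.21, and each library correlated best with its own number, a hint from the data and not the design; the numbers were taken not to pair libraries. With the replicate block 3444 genes were higher and 3525 lower, EGFR passed at -0.18 (adjusted p = 0.0067) and EREG at 0.19 (adjusted p = 0.0240). With the correction 2148 genes were lower, and without each library 1639 to 3234 were higher and 1445 to 3375 lower, counting corrected and uncorrected fits together. EGFR also passed with DESeq2 (-0.17), limma-voom (-0.18) and library 3 of both groups left out (-0.16), and reversed with the correction (0.062), the correction with the replicate block (0.063) and the correction without library 3 of both groups (0.065). ERBB2 missed the threshold in those 3 corrected fits (0.040, 0.040 and 0.13) and at a threshold of 0.01 (0.23). EREG passed in them (0.56, 0.56 and 0.62), with library totals (0.27) and without library 3 of both groups (0.22). NRG1 reversed in them (0.21, 0.21 and 0.16) and with library totals (0.065). The cause of these shifts was not tested. Without each library in turn, again both fits together, log2 fold changes ran from -0.22 to 0.082 for EGFR, -0.0042 to 0.30 for ERBB2, 0.13 to 0.62 for EREG, -0.23 to 0.0028 for TGFA, -0.067 to 0.24 for NRG1 and 0.29 to 0.61 for LRIG1. The next counts are for the correction alone, with the block, and without library 3 of both groups. Of other receptors and ligands 0, 0 and 1 were higher and 0 lower in each. Shedding genes had 0 in either direction in each. Adaptors had 1 higher in each. RAS to ERK genes had 1 higher in each, and 1, 2 and 2 lower. Degradation genes had 2, 2 and 4 lower, and 1 higher with the correction alone or without library 3. Transcripts induced by ERK had 4 higher with the correction alone and at 0.01. Of other receptors and ligands 0 were lower with library totals, no filter, DESeq2, library 3 left out or a threshold of 0.01. With library totals, DESeq2, library 3 left out or 0.01, 1 ERK-induced transcript was lower, and 5 adaptors were higher without library 3. Without each library, both fits together, 3 to 7 ERK-induced transcripts were higher and 1 to 3 lower, 1 to 4 RAS to ERK genes higher and 0 to 4 lower, 1 to 3 adaptors higher and 2 to 7 lower, 0 to 3 shedding genes higher and 0 to 3 lower, 0 to 1 other ligand lower, and 1 to 3 degradation genes higher and 2 to 13 lower. AREG and HBEGF rested on 76 to 221 reads a library, which limits their precision.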
